A study of Mus musculus with 10 samples.

Results

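The genes described here encode the voltage-gated and potassium ion channels of the mouse and their subunits. They were taken by symbol from the deposited count tables as every protein-coding gene whose symbol starts with Kcn or Cacna1, or consists of Scn, digits and a or b, without antisense transcripts. The rule gave 118 genes of 43629 in the tables, of which 21551 were protein-coding. Total RNA came from the dorsal telencephalon, the embryonic tissue that forms the cerebral cortex, of C57BL/6 mice at E14.5. In the 5 Dot1l-cKO samples a Cre recombinase active in the telencephalon deleted both floxed copies of Dot1l, which encodes a methyltransferase of histone H3 (Cre/+; Dot1l f/f). The 5 controls were littermates with a single floxed copy of Dot1l and no Cre (+/+; Dot1l f/+). The Cre is a knock-in that only the Dot1l-cKO samples carry, so effects of the knock-in itself and of the loss of Dot1l cannot be told apart in this comparison. The question was how loss of DOT1L changes gene expression in the early cortex, here for the genes that set membrane excitability.

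Potassium channels carry potassium out of the cell and hold or restore the resting potential. Voltage-gated potassium (Kv), sodium and calcium channels open on depolarization and shape the action potential and calcium entry, whereas inward rectifiers and tandem pore domain channels conduct near rest. Accessory subunits have no pore of their own and set the gating and surface level of the channels they bind. In the embryonic cortex, progenitors conduct mainly through leak-type potassium channels, and voltage-gated channels are acquired as newborn neurons mature.

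Total counts ranged from 54202349 to 66556034 per sample. Replicates 2 and 3 of both groups share the number 57, which the sources used here do not explain, in the headers of the normalised tables and had 0.0471% to 0.492% of their counts in mitochondrial ribosomal RNA, against 5.79% to 10.9% in the other 6 samples. Dot1l itself, counted over all its exons, was at 37.3 ± 4.04 CPM (counts scaled to a common total of 1e+06 per sample; SD, n = 5) in controls and 39.4 ± 11.7 in Dot1l-cKO, and since the deleted part is not counted separately this value does not check the labels. Over all genes tested, 5.67% were called higher and 1.44% lower, the shares that the counts in each marker list stand beside. The neuron markers listed for cortex were all detected in both groups, with 1 of 15 higher in Dot1l-cKO and 2 higher by DESeq2. Of the 15 log2 fold changes 11 were positive, and the sums overlapped, at 4320 to 6088 CPM in controls and 5044 to 5975 in Dot1l-cKO. All 6 microglia markers tested were higher in Dot1l-cKO, with a summed level of 31.6 to 54.2 CPM in controls and 63.9 to 97.5 in Dot1l-cKO. With the replicate block 5 of the 6 were called (Aif1 at adjusted p = 0.073, edgeR), and Aif1 and Csf1r each kept their call in 2 of the 10 fits without 1 library. Of 10 progenitor markers 2 were higher, Vim by 0.53 ± 0.09 and Slc1a3 by 0.43 ± 0.07 on the log2 scale (SE; edgeR adjusted p = 0.00451 and 0.00447). Pax6 was lower at -0.36 ± 0.09 (edgeR adjusted p = 0.0294), a call kept in 3 of the 10 fits without 1 library. DESeq2 and the fit with the replicate block each called 2 higher and 2 lower. Of the 10 log2 fold changes 7 were negative. The sums overlapped, at 3153 to 3881 CPM in controls and 3534 to 3901 in Dot1l-cKO. Of the ventral telencephalon and interneuron markers, 3 of the 14 tested were lower and none higher, and their sum was 135 to 468 CPM in controls against 76.9 to 185 in Dot1l-cKO. Of 6 Cajal-Retzius cell markers, 3 were higher, with sums of 403 to 621 and 608 to 1179 CPM. The part of these cells in the channel results was not tested, and in bulk tissue fewer cells of a type cannot be told apart from less RNA per cell.

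In Dot1l-cKO compared to controls, 16 channel genes were higher and 1, Kcnn2, was lower among the 100 that passed the filter on low counts (edgeR quasi-likelihood test, Benjamini-Hochberg adjusted p under 0.05 over 17039 genes). Over all genes tested, 7.11% were called, 5.67% higher and 1.44% lower. The genes that rose were spread over leak and inward rectifier potassium channels, Kv channels, accessory subunits and sodium channels, and no pore gene of a voltage-gated calcium channel passed the test. The rises were moderate, from 1.22-fold for Kcnip3 to 2.22-fold for Kcnj4. The log2 fold change was positive for 70 of the 100 channel genes, against 48.8% of all genes, and its median was 0.17 over the channel genes and -0.01 over all genes. In 14 of the channel genes the 5 Dot1l-cKO values were all above the 5 control values, which held for 6.17% of all genes, and in 2, Kcnn2 and Cacna1i, they were all below, against 2.17% of all genes. The other 18 members had at most 27 reads in any sample and were not tested.

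**Figure D1:**
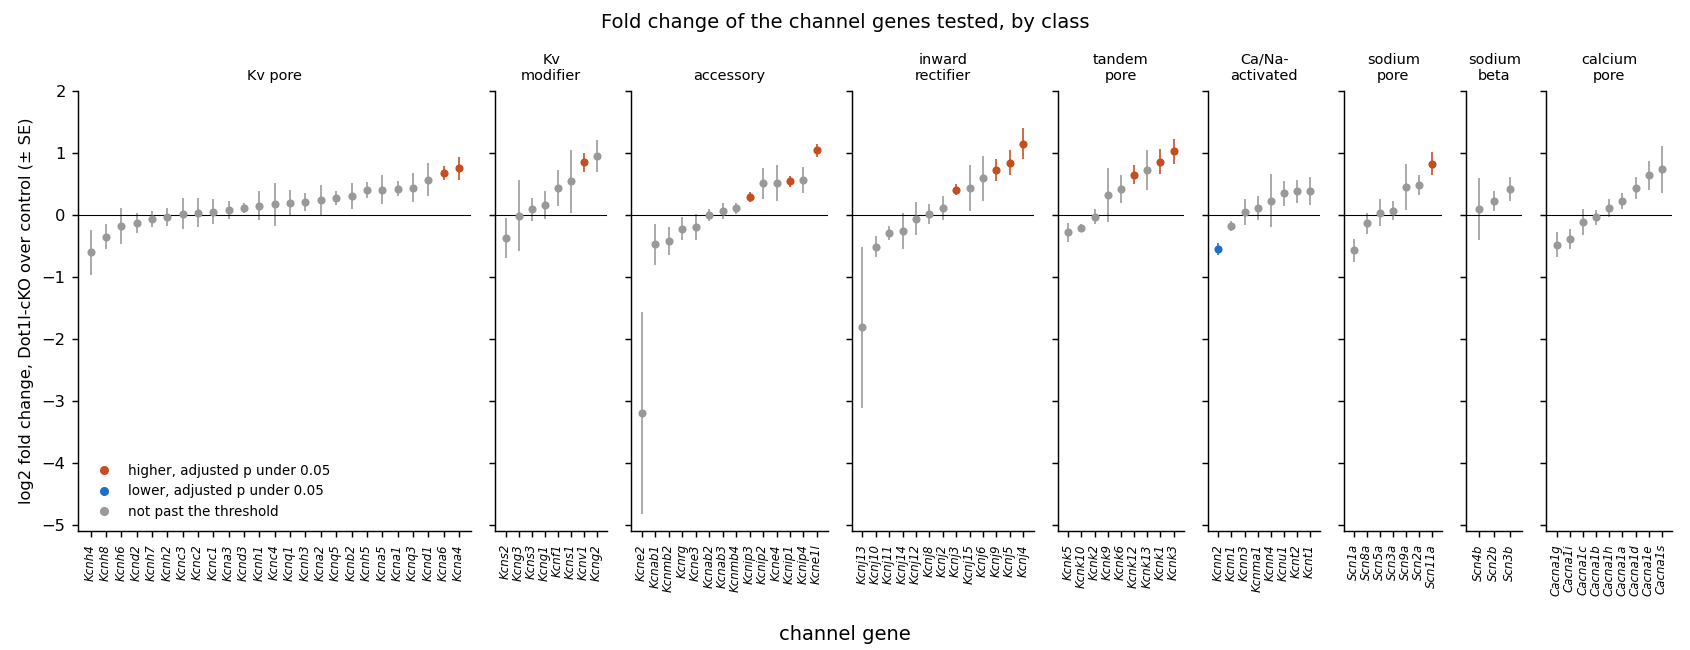
Log2 fold change of 96 of the channel genes tested, Dot1l-cKO over control, with its approximate standard error (bar), by class and ordered by value. Genes past an adjusted p of 0.05 are coloured by direction, with Kcnn2 the lower one, and Kcne2 and Kcnj13 have the lowest values with the widest bars.

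The number of channel genes called varied with the libraries in the fit. With DESeq2 it was 18 higher and 5 lower, with all 17 genes above among them, against 6.77% higher and 3.32% lower over all genes. With the replicate number as a block it was 18 higher and 1 lower, against 6.51% and 2.91%. Leaving out 1 library at a time gave between 9 and 20 called genes. The count was 9 without control replicate 4, 10 without Dot1l-cKO replicate 4, and 11 without control replicate 1 or 2 or Dot1l-cKO replicate 1 or 3. Calls over all 17039 genes moved as well, from 1212 with all samples to between 736 and 1343, with 766 without control replicate 4. All 17 genes kept their direction in each of these fits. Kcnj4, Kcne1l, Kcnk3, Kcnv1, Kcna6, Kcnip1 and Kcnn2 were among the 8 that also kept their call in each. Within the 4 samples with header number 57 the log2 fold changes of the 16 genes ran from 0.33 to 1.66, and within the other 6 samples from 0.28 to 0.98. These genes were picked on the same samples, so the ranges are no separate support. Of the 17 genes 0 were called within the 4 samples and 3 within the other 6.

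**Figure D2:**
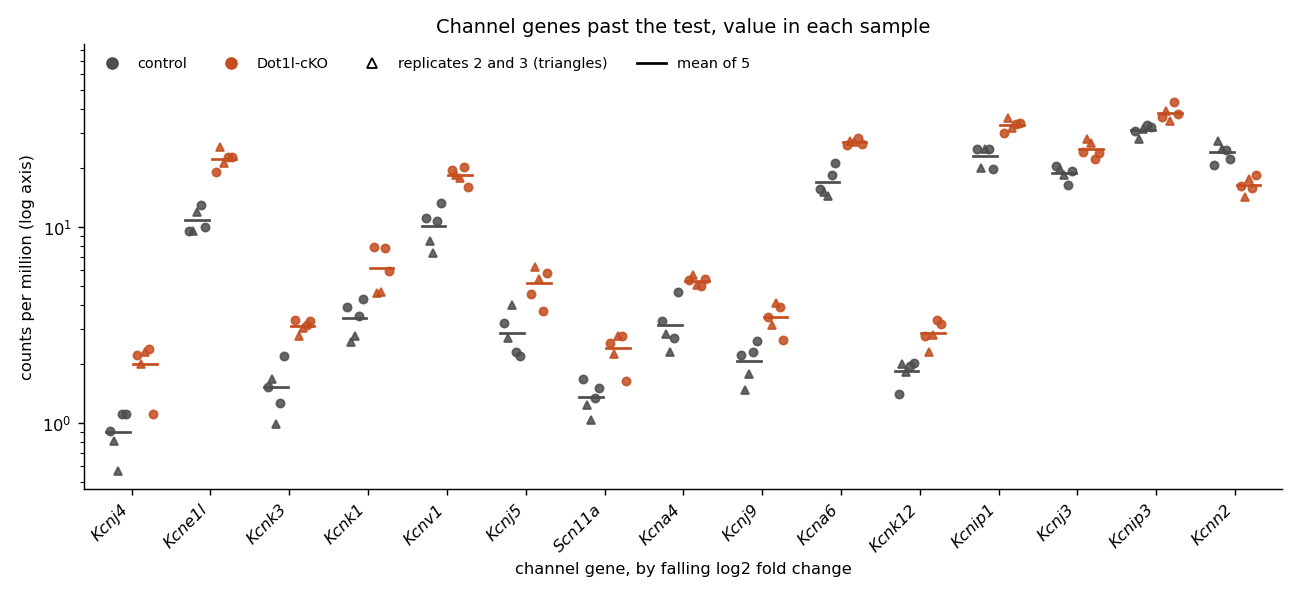
CPM in each sample (log axis) of 15 of the channel genes that passed the test, control and Dot1l-cKO side by side, with the mean of 5 as a line; triangles are replicates 2 and 3. The groups do not overlap in 12 of the 15, and Kcnj4, Kcnj5 and Scn11a are the exceptions.

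A feature that the potassium pore genes share, and that the symbol rule did not use, is the coding sequence of the selectivity filter, the loop that lets potassium through. The in-frame pattern ACNNNNGGNTNNGGN, searched on the coding strand of the longest annotated coding sequence, was found in 66 of 77 potassium pore genes, in none of the 41 accessory, sodium and calcium channel genes, and in 2.43% of 21173 protein-coding genes. It was missing from Kcnn1, Kcnn2, Kcnn3 and Kcnj14, and from 7 of the ether-a-go-go (Kcnh) genes. The stretches below, given as 30 coding bases with the pattern in capitals, belong to channel genes that rose in Dot1l-cKO, and show that pores of different classes were among them.
Kcnj3: accgaggccACCATCGGCTATGGCtaccgc
Kcnj5: acagaaacaACCATTGGGTATGGCttcaga
Kcnj9: acggagaccACCATCGGCTATGGGcaccgg
Kcna4: accatgacaACTGTGGGCTATGGGgacatg
Kcna6: acaatgaccACGGTAGGTTATGGGgacatg
Kcnv1: tccatgactACAGTAGGATATGGGgacatt
Kcnk3: accctcaccACCATCGGCTTCGGCgactat
In the mm10 build these lie on the plus strand at chr2:55437618-55437647 (Kcnj3), chr2:107296486-107296515 (Kcna4) and chr5:30622193-30622222 (Kcnk3). Those on the minus strand are at chr9:32322553-32322582 (Kcnj5), chr1:172326178-172326207 (Kcnj9), chr6:126738641-126738670 (Kcna6) and chr15:45109283-45109312 (Kcnv1). Kcna4 and Kcna6 have 25 of the 30 bases in common, as do Kcnj3 and Kcnj9, whereas Kcnj5 and Kcnj9 share 20. Kcnk3 holds the pattern in 2 places, as its class carries a pair of pore loops in each subunit, and the stretch given is the later one. Kcnk1 of the same class has 1 match to these letters. Kcna4 has 2 matches, at codons 54 and 525, which share 13 of the 30 bases, and the stretch given is the one at codon 525. The other Kcna genes have 1 match each, and the one at codon 54 of Kcna4 is not taken as a pore loop here.

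Leak channels of the tandem pore domain class (Kcnk) were the class with the highest share of genes that rose, 3 of 9 tested, and none fell. Kcnk3, an acid-sensitive leak channel, was at 1.53, 1.67, 0.988, 1.26 and 2.19 CPM in controls 1 to 5 and at 3.34, 2.76, 3.05, 3.14 and 3.3 in Dot1l-cKO 1 to 5. Every Dot1l-cKO sample lay above every control, and the log2 fold change was 1.03 ± 0.20 (SE; edgeR adjusted p = 0.00931). Kcnk1, a weakly rectifying leak channel, was at 3.88, 2.6, 2.77, 3.49 and 4.31 CPM in controls and at 7.85, 4.61, 4.67, 7.83 and 5.99 in Dot1l-cKO, again without overlap, and rose by 0.86 ± 0.20 on the log2 scale (edgeR adjusted p = 0.0276). Kcnk12, known as a subunit that is silent on its own, rose from a mean of 1.84 ± 0.255 to 2.88 ± 0.417 CPM (SD, n = 5; edgeR adjusted p = 0.0268). The calls on Kcnk1 and Kcnk12 were close to the threshold. Kcnk1 lost its call (adjusted p = 0.0507 to 0.0725) without any 1 of controls 1 to 4 or Dot1l-cKO 1, 4 or 5, and Kcnk12 (0.0545 to 0.0705) without control 1 or 4 or Dot1l-cKO 1, 3, 4 or 5, and in the fit without the filter on low counts Kcnk12 was also not called. Kcnk10, the most abundant of the class per length and a mechanically and lipid-gated channel, was at 42.9 ± 3.87 CPM in controls and 37.0 ± 2.00 in Dot1l-cKO (SD, n = 5) and did not pass the test (adjusted p = 0.123 with edgeR, and 0.0335 with DESeq2, where it was the gene of this class called lower).

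Among the inward rectifiers (Kcnj), 4 of 13 rose and none fell, and 3 of the 4 were subunits of the G protein-gated channels. These channels open on release of G protein subunits by receptors for transmitters such as GABA, acetylcholine and serotonin. Kcnj3 was at 20.5, 19.8, 18.3, 16.4 and 19.4 CPM in controls and 24.2, 28.2, 26.9, 22.1 and 23.9 in Dot1l-cKO, without overlap (log2 fold change 0.41 ± 0.09, edgeR adjusted p = 0.0186). Kcnj5 was at 3.24, 2.72, 4, 2.29 and 2.19 CPM in controls and 4.55, 6.26, 5.44, 3.71 and 5.85 in Dot1l-cKO. Only Dot1l-cKO 4 lay within the control range, and the log2 fold change was 0.84 ± 0.20 (edgeR adjusted p = 0.0287). Kcnj9 was at 2.23, 1.47, 1.78, 2.3 and 2.61 CPM in controls and 3.47, 3.17, 4.11, 3.88 and 2.64 in Dot1l-cKO, which did not overlap by a narrow margin (log2 fold change 0.73 ± 0.18, edgeR adjusted p = 0.035). Kcnj6, the remaining subunit of this kind, was low, at 0.616 ± 0.303 and 0.920 ± 0.260 CPM (SD, n = 5), and did not pass the test (adjusted p = 0.406 with edgeR). In the fit with the replicate number as a block Kcnj9 missed the threshold (adjusted p = 0.052), as it did without the filter on low counts (0.0591). Kcnj3 lost its call without control 4 or Dot1l-cKO 3 (0.0502 and 0.0508). Kcnj5 lost it without any 1 of controls 1, 2, 4 and 5 or Dot1l-cKO 2, 3 and 5 (0.0518 to 0.074), and Kcnj9 without any 1 library other than control 5 and Dot1l-cKO 5 (0.0506 to 0.0859).

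Kcnj4, a strong inward rectifier that sets the resting potential of neurons, had the largest fold change of the genes called. It was at 0.905, 0.807, 0.569, 1.11 and 1.11 CPM in controls and 2.23, 1.99, 2.29, 2.38 and 1.11 in Dot1l-cKO. Dot1l-cKO 1 to 4 lay above every control and Dot1l-cKO 5 at the top of the control range, and the log2 fold change was 1.15 ± 0.25 (edgeR adjusted p = 0.0172). Kcnj8, the pore of vascular ATP-sensitive channels and a pericyte gene, was at 6.76 ± 1.40 CPM in controls and 6.83 ± 1.18 in Dot1l-cKO (SD, n = 5; edgeR adjusted p = 0.976), and the summed vascular and pericyte markers overlapped, at 202 to 347 and 170 to 406 CPM. Of the class, 5 of 13 had negative log2 fold changes, and 2 of them, Kcnj10 of glia and Kcnj11 of ATP-sensitive channels, had an unadjusted p under 0.05 and were called lower by DESeq2.

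Of the Kv pore genes 3 of 28 rose and none fell, and 21 of the 28 had positive log2 fold changes. Kcna6, a delayed rectifier of axons, was at 15.7, 15, 14.4, 18.3 and 21.3 CPM in controls and at 26.2, 27.4, 27, 28.3 and 26.5 in Dot1l-cKO, a narrow range above all controls (log2 fold change 0.68 ± 0.11, edgeR adjusted p = 0.00323). Kcna4, a rapidly inactivating channel of the same family, was at 3.3, 2.84, 2.31, 2.71 and 4.65 CPM in controls and 5.38, 5.69, 5.04, 5.02 and 5.4 in Dot1l-cKO. The log2 fold change of Kcna4 was 0.75 ± 0.18 (edgeR adjusted p = 0.0263), and its call was lost without any 1 library other than controls 3 and 5 (0.051 to 0.0705). All 6 genes of the Kcna family that were tested had positive log2 fold changes, from 0.08 to 0.75.

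Other Kv pore genes of cortical neurons did not pass the test. Kcna1 missed it narrowly, with a log2 fold change of 0.42 ± 0.12 (edgeR adjusted p = 0.0543) and 0.0555 with the replicate block. It passed by DESeq2 (0.0319), and in edgeR with the header-number block (0.0402) or without Dot1l-cKO 2 (0.0161). Kcnq3, a subunit of the M-type channel that restrains repetitive firing, was at 92.0 ± 24.7 CPM in controls and 124 ± 36.2 in Dot1l-cKO (SD, n = 5; edgeR adjusted p = 0.327). The log2 fold change was 0.08 ± 0.15 for Kcna3, the Kv pore gene of the highest level per length, -0.13 ± 0.16 for Kcnd2, a pore of the A-type current, and 0.21 ± 0.15 for Kcnh3, an ether-a-go-go type channel of the forebrain. All 8 genes of the Kcnh family were tested and none was called by edgeR, DESeq2 or the fit with the replicate block, with 1 at an unadjusted p under 0.05. Their median log2 fold change was -0.04, and 5 of the 8 values were negative.

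Among the modifiers (Kcnf, Kcng, Kcns and Kcnv), which form no channel on their own and alter Kv pores they join, 1 of 8 rose. Kcnv1, found mainly in brain, was at 11.1, 8.45, 7.38, 10.7 and 13.2 CPM in controls and 19.6, 18.3, 17.8, 20.3 and 15.9 in Dot1l-cKO. The groups did not overlap, and the log2 fold change was 0.85 ± 0.15 (edgeR adjusted p = 0.00614). Within the 4 samples of header number 57 it was 1.21, and within the other 6 it was 0.66. Kcng2 was low, at 0.408 ± 0.160 CPM in controls and 0.789 ± 0.141 in Dot1l-cKO (SD, n = 5), also without overlap. Its log2 fold change of 0.95 ± 0.26 missed the threshold narrowly in edgeR (adjusted p = 0.0552) and passed by DESeq2 (0.0186).

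Of the potassium accessory genes 3 of 14 rose, and the strongest call of all channel genes was among them. Kcne1l, whose product spans the membrane once and dampens Kv channels, lies on the X chromosome at chrX:142304752-142306294 (minus strand). It was at 9.57, 9.56, 11.9, 13 and 10 CPM in controls and at 19, 25.6, 21.3, 22.7 and 22.7 in Dot1l-cKO. The lowest Dot1l-cKO sample lay well above the highest control, and the log2 fold change was 1.04 ± 0.11 (edgeR adjusted p = 0.000456). The others were Kcnip1 and Kcnip3 of the KChIP family, calcium-binding proteins that assemble with Kcnd pores, of which the product of Kcnip3 is also known as a transcriptional repressor. Kcnip1 rose from 22.9 ± 2.79 to 33.2 ± 2.22 CPM (SD, n = 5) and Kcnip3 from 31.2 ± 1.86 to 38.2 ± 3.23, each without overlap, with adjusted p-values of 0.0057 and 0.0407 (edgeR). The fourth and the second member of the family, Kcnip4 and Kcnip2, had log2 fold changes of 0.56 ± 0.21 and 0.51 ± 0.25 and did not pass the test, nor did any of the 3 Kcnd pore genes, whose values ran from -0.13 to 0.57. By DESeq2 and in the fit with the replicate block the 3 Kcnd genes were also not called, and none had an unadjusted p under 0.05 in edgeR, but Kcnd1 was called higher without Dot1l-cKO 2 (adjusted p = 0.0272). Kcnip3, the smallest rise, lost its call without any 1 library other than control 5 and Dot1l-cKO 3 (adjusted p = 0.0628 to 0.102), and with all 10 samples it was not called in edgeR with DESeq2 size factors, in edgeR without the filter on low counts or in limma.

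Kcnn2 was the channel gene that fell. It encodes a small-conductance channel opened by calcium, which produces the after-hyperpolarization that follows action potentials. It was at 20.8, 27.5, 24.9, 24.8 and 22.3 CPM in controls and 16.1, 14.2, 17.5, 15.8 and 18.3 in Dot1l-cKO. Every Dot1l-cKO sample lay below every control, with a log2 fold change of -0.55 ± 0.10 (edgeR adjusted p = 0.00603). Within the 6 samples without header number 57 Kcnn2 was not called (log2 fold change -0.44, adjusted p = 0.0797 with edgeR). Kcnn1, the close relative with the highest level per length in this class, was at 21.2 ± 1.69 CPM in controls and 18.8 ± 1.08 in Dot1l-cKO (SD, n = 5), a log2 fold change of -0.17 ± 0.08 that did not pass the test (adjusted p = 0.239 with edgeR). Kcnma1, the large-conductance channel, was at 9.43 ± 3.04 and 10.2 ± 1.16 CPM (adjusted p = 0.803 with edgeR). The other 6 of the 8 calcium- or sodium-activated genes had positive log2 fold changes.

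Of the 7 sodium channel pore genes tested 1 rose. Scn11a, a pore known from peripheral pain-sensing neurons, was low, at 1.67, 1.23, 1.03, 1.34 and 1.5 CPM in controls and 2.55, 2.25, 2.78, 2.77 and 1.63 in Dot1l-cKO. Dot1l-cKO 5 lay below control 1, and the log2 fold change was 0.83 ± 0.19 (edgeR adjusted p = 0.0236, lost at 0.0585 to 0.0626 without control 2 or 4 or Dot1l-cKO 1, 3 or 4).

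The sodium channel pores that carry the action potential in central neurons did not pass the test. Scn3a, the main embryonic form, was at 73.4 ± 17.9 CPM in controls and 77.1 ± 6.81 in Dot1l-cKO (SD, n = 5), and Scn8a at 26.6 ± 7.26 and 24.3 ± 2.47. Scn2a, of excitatory neurons, was at 33.4 ± 9.16 and 47.1 ± 4.26 CPM, with a log2 fold change of 0.49 ± 0.16 (edgeR adjusted p = 0.106). Scn1a, which predominates in inhibitory neurons, was at 10.1 ± 2.76 and 6.82 ± 0.997 CPM, with a log2 fold change of -0.57 ± 0.19 (adjusted p = 0.105 with edgeR and 0.0292 with DESeq2). The Scn1a value was -0.06 in the 4 samples of header number 57 and -0.86 in the rest. Beside it stand the sums of the interneuron markers given above, whose most strongly lowered gene, Lhx6, was at 30.4 ± 12.4 CPM in controls and 3.79 ± 2.20 in Dot1l-cKO, and their part in the Scn1a value was not tested. Scn3b, the most abundant channel gene per length, was at 72.7 ± 20.7 and 97.2 ± 18.1 CPM (edgeR adjusted p = 0.253, and 0.039 with the replicate block). Leaving out control 5 brought Scn2a past the threshold (0.0148), and leaving out control 3 did so for Scn1a (0.0212).

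None of the 9 calcium channel pore genes tested passed the threshold in edgeR or DESeq2, although 2 higher and 2 lower genes had an unadjusted p under 0.05. Over all 17039 genes 2265 were higher and 1242 lower at that level. With the replicate number as a block 2 passed it. Cacna1e, an R-type channel, was at 103, 75.7, 59.8, 96.9 and 143 CPM in controls and 160, 101, 125, 166 and 196 in Dot1l-cKO. The groups overlapped, but each Dot1l-cKO sample was above the control of the same number, with a log2 fold change of 0.64 ± 0.23 (edgeR adjusted p = 0.137, and 0.00869 with the block). Cacna1d, an L-type channel, showed the same pattern, with a log2 fold change of 0.44 ± 0.18 and adjusted p-values of 0.204 without and 0.0253 with the block (edgeR). Both also passed without control 5 (0.0346 for Cacna1d and 0.0387 for Cacna1e). The log2 fold change was 0.11 ± 0.14 for Cacna1h, a low-voltage-activated T-type channel and the most abundant of the class per length, 0.23 ± 0.13 for Cacna1a, the P/Q-type channel of synapses, and -0.11 ± 0.21 for Cacna1c, an L-type channel. The other T-type genes had negative values of -0.48 ± 0.20 for Cacna1g, which passed without Dot1l-cKO 5 (adjusted p = 0.027 with edgeR), and -0.39 ± 0.16 for Cacna1i. Cacna1s was low, at 0.407 ± 0.258 CPM in controls and 0.684 ± 0.191 in Dot1l-cKO (SD, n = 5). It passed as higher without control 3 (adjusted p = 0.0382 with edgeR).

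The lowest log2 fold changes belonged to Kcne2 and Kcnj13, both known from the choroid plexus, and rested on 2 control samples. Kcne2 was at 14.4, 0.105, 16.3, 0.0156 and 0.0645 CPM in controls 1 to 5 and 0.566, 0, 0.385, 0.0151 and 2.4 in Dot1l-cKO 1 to 5. Kcnj13 was at 2.75, 0.0351, 2.75, 0 and 0.0807 CPM in controls and 0.415, 0.0173, 0.228, 0.0151 and 0.918 in Dot1l-cKO. In both genes controls 1 and 3 were high and the other controls were near 0, and in Dot1l-cKO replicate 5 was highest. The log2 fold changes of -3.19 ± 1.63 and -1.81 ± 1.30 did not pass the test (adjusted p = 0.303 and 0.486 with edgeR). The summed choroid plexus and hem markers followed the same samples, at 536, 9.21, 643, 11.2 and 12.4 CPM in controls and 63.0, 24.0, 48.8, 14.4 and 189 in Dot1l-cKO, and none of the 8 was called by edgeR, DESeq2 or at an unadjusted p under 0.05. Ttr, the defining marker of the choroid plexus, ranged from 0.234 to 575 CPM in controls.

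**Figure D3:**
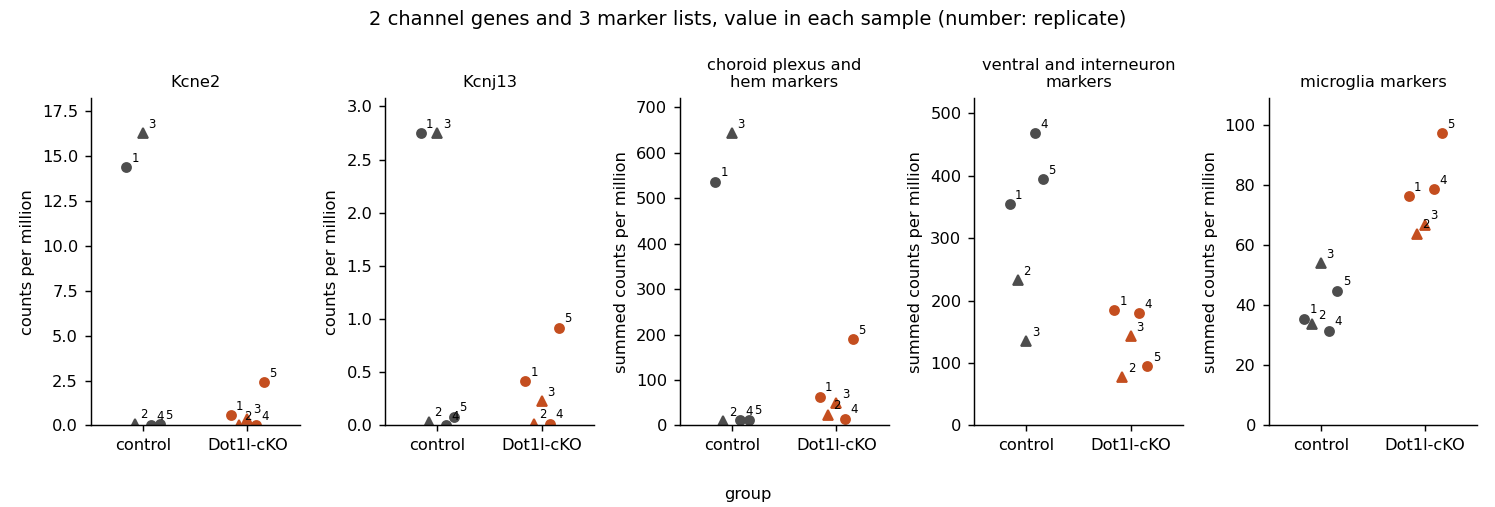
CPM of Kcne2 and Kcnj13 and summed CPM of 3 marker lists in each sample, control and Dot1l-cKO side by side, with replicate numbers beside the points and triangles for replicates 2 and 3. Controls 1 and 3 stand out in both genes and in the choroid plexus list, the microglia sums of the groups do not overlap, and the interneuron sums do, with control 3 at 135 CPM.

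Levels were compared between genes as CPM per kb of exon. Scn3b was highest, at 13.3 ± 3.79 in controls and 17.8 ± 3.31 in Dot1l-cKO (SD, n = 5), before Kcna3 at 12.4 ± 2.76 and 13.1 ± 1.67, which did not differ from it in controls beyond the spread. Kcne1l was at 7 ± 1.01 CPM per kb in controls and 14.4 ± 1.56 in Dot1l-cKO. Of the 10 most abundant channel genes per kb, Kcne1l and Kcnip3 rose and none fell. Median levels were 1.7 CPM per kb for the 16 genes that rose, 1.08 for the 83 not called and 4.03 for all genes tested. The summed level of the 4 G protein-gated inward rectifier genes was 4.22 to 5.24 CPM per kb in controls and 6.09 to 7.57 in Dot1l-cKO, and that of the 4 KChIP genes was 13.1 to 14.2 and 17.0 to 19.4, neither with overlap. Kcnj3 made up most of the first sum, at a mean of 3.62 of 4.8 in controls. Kcnip3 and Kcnip1 made up most of the second, at 8.8 and 3.7 of 13.8. These genes were called above without overlap, so the sums largely restate them and are no separate result on the families. Summed over all 118 genes the level was 179 to 230 CPM per kb in controls and 204 to 244 in Dot1l-cKO, which overlapped.

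**Figure D4:**
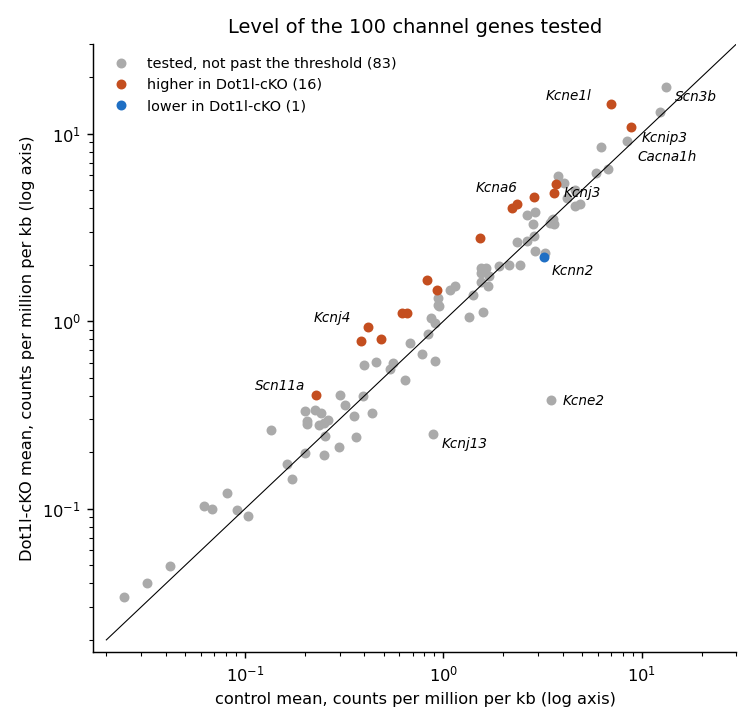
Mean level of each of the 100 channel genes tested, in CPM per kb of exon on log axes, in controls (horizontal) against Dot1l-cKO (vertical); the line marks equal levels. The 16 genes that rose lie above the line over most of the range of levels, the gene that fell, Kcnn2, lies below it, and Kcne2 and Kcnj13 lie farthest from it.

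The share of genes that rose was also counted by gene length. Among all genes tested with coordinates, the share called higher was 4.52% of those spanning under 10 kb, 5.31% of those from 10 to 100 kb and 9.78% of those over 100 kb. Among the channel genes it was 4 of 19 (21.1%), 10 of 47 (21.3%) and 2 of 34 (5.88%). The 2 long genes were Kcnip1 and Kcnj3, and the gene that fell, Kcnn2, was also over 100 kb. The median span was 33.9 kb for the channel genes that rose and 59.5 kb for those not called. The order of these shares was not tested and rests on small counts.

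**Figure D5:**
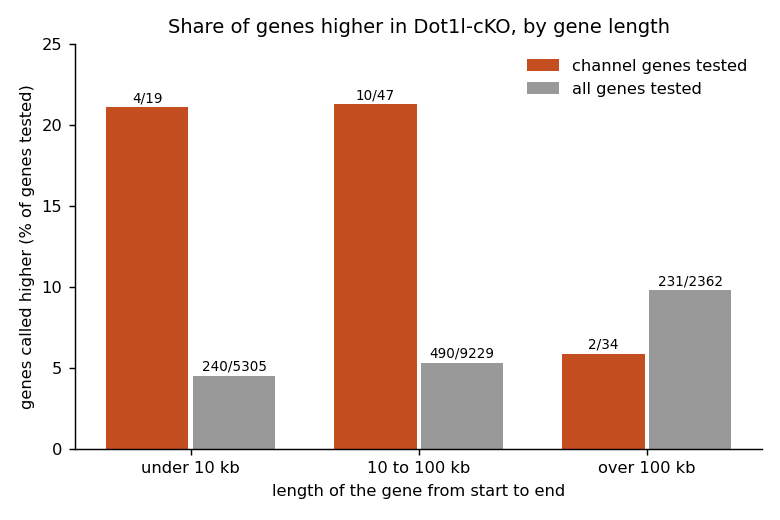
Share of genes called higher in Dot1l-cKO (percent of genes tested) by the span of the gene from start to end, for channel genes and for all genes, with counts above the bars. The channel genes stand at 21.1% and 21.3% below 100 kb and at 5.88% above it, against 4.52%, 5.31% and 9.78% for all genes.

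Many channel genes of neurons are known targets of REST, a repressor that binds a long element made of a left part, TTCAGCACC, and a right part, GGACAGC. Promoter windows from 250 bases before to 50 bases after the annotated start were taken from RefSeq (GRCm38.p6), and 86 of the 118 genes matched, 12 of them genes that rose. The pattern GGACAGC was found on either strand in 5 of the 16 windows of these 12 genes (31.2%), in 5 of 81 windows of channel genes tested and not called (6.17%) and in 6.56% of all 32851 windows. Over all channel genes it was in 12 of 116 windows (10.3%). The difference between these shares was not tested and rests on small counts, and some genes have more than 1 window. Of the genes with a match, Kcnip3, Kcnj5 and Kcnk1 lost their call in 8, 7 and 7 of the 10 fits without 1 library. TTCAGCACC was in none of the 16 windows and in 0.371% of all windows. The stretches around the shorter pattern, read along the gene's strand with the match in capitals (GCTGTCC where it is on the other strand), are given because they belong to 5 of the genes that rose.
Kcne1l: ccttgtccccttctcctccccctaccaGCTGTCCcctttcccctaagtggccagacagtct
Kcnip3: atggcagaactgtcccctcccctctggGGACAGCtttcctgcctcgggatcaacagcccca
Kcnj4: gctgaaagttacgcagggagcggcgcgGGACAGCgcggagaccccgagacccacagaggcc
Kcnj5: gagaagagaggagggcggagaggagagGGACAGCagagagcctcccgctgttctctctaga
Kcnk1: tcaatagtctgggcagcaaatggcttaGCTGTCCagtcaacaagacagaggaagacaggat
They lie at chrX:142306280-142306340, chr2:127522259-127522319, chr15:79505334-79505394 and chr9:32344318-32344378 on the minus strand and at chr8:125994965-125995025 on the plus strand. A match of 7 letters is a description of the sequence and no measure of binding. Rest itself was at 49.6 ± 8.50 CPM in controls and 42.8 ± 4.81 in Dot1l-cKO (SD, n = 5; edgeR adjusted p = 0.365).

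Other genes of channel function outside the symbol rule were taken from 4 lists of 46 genes. Tested were 14 auxiliary calcium channel genes, 8 HCN and leak channel genes, 10 potassium channel partners and 9 sodium channel partners. Of those tested 4 rose and 2 fell, and over all genes tested 5.67% rose and 1.44% fell. Of the 8 HCN and leak channel genes 3 rose. Nalcn, the sodium leak channel, rose from 14.3 ± 3.86 to 26.3 ± 3.18 CPM (SD, n = 5; edgeR adjusted p = 0.0098), and Unc80, a partner of its complex, from 4.57 ± 1.10 to 7.33 ± 1.34 (0.0492, kept in only 2 of the 10 fits without 1 library, up to 0.119).

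Of the potassium channel partners 1 rose and 2 fell among 10 tested. Cntnap2, which clusters Kcna channels on axons, rose from 89.8 ± 9.15 to 129 ± 17.5 CPM (SD, n = 5; edgeR adjusted p = 0.0127). Dpp10, a partner of Kcnd channels like the KChIPs, fell from 19.6 ± 4.88 to 10.2 ± 1.69 CPM without overlap (edgeR adjusted p = 0.00873), the opposite direction to Kcnip1 and Kcnip3. Abcc8, the regulatory subunit of ATP-sensitive channels, fell from 27.7 ± 3.98 to 19.6 ± 2.87 CPM (edgeR adjusted p = 0.0343, kept in 3 of the 10 fits without 1 library, up to 0.0821). None of the 14 auxiliary calcium channel genes and none of the 9 sodium channel partners tested was called by edgeR or DESeq2. At an unadjusted p under 0.05 stood 4 of the former, all higher, and 0 of the latter, beside 2265 higher and 1242 lower of all 17039 genes.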

How the data were processed

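RNA was sequenced from 10 samples, 5 control and 5 Dot1l-cKO, grouped by their titles. The authors made stranded total RNA libraries, trimmed the paired reads with Trim Galore 0.2.8, mapped them to mm10 with TopHat2 2.0.9 guided by Ensembl release 79 and counted reads per gene with HTSeq 0.6.0 in reverse-stranded mode (versions per the submitters' processing notes). The deposited counts are whole numbers per gene, not normalised. The other deposited tables hold the authors' normalised counts, a signal equal to the count divided by 1 DESeq2 1.6.1 size factor per sample. Library type and aligner can shift the level of a gene relative to others, so genes were compared mainly between genotypes.

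Symbols, gene types, coordinates and exon lengths came from a GENCODE annotation of the same build, not from the Ensembl release 79 behind the counts. Levels per kb divide by the merged exons of all transcripts of a gene, so the ranks between genes are approximate. Genes were kept with filterByExpr (minimum count 10), scaled by TMM and tested with edgeR 4.0.16 in R 4.3.3 (quasi-likelihood, 2-sided, no covariate), with Benjamini-Hochberg adjustment over 17039 genes and a threshold of 0.05. Standard errors were derived from the test statistic and are approximate. On simulated counts for this comparison 65.5% of 200 genes changed by 1 log2 unit were recovered among 17039, with 2.96% false calls. CPM use TMM library sizes, and intervals from counts would cover counting error only, as no molecular identifiers were used. Replicates of a group differed by more than sampling noise (chi-square per degree of freedom at least 30.8).

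The members and gene lists were chosen with earlier results of these data known. Named by rule are the 12 largest rises and 6 largest falls called at a mean log2 CPM no lower than 0. The rule also took the most abundant gene per kb of each class and 15 genes whatever their result. Kcnj8 and Kcnj13, Dot1l, and up to 8 other channel genes called complete it. The further genes named were picked after their values were seen. They are Kcna1, Kcnk12, Kcng2, Kcnip1 to Kcnip4, Kcne2, Cacna1d, Cacna1e, Cacna1i, Cacna1s, Kcnj10, Kcnj11 and those listed by family.

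Replicate numbers are shared between groups in the titles, and deviations from the group means correlated between same-numbered samples at 0.23, 0.35, 0.15, 0.60 and 0.13 (mean 0.29, other numbers -0.07), so a fit with the number as a block was run. Other alternatives were DESeq2 1.42.0, its size factors in edgeR, no filter, at least 10 counts in every sample, the header number as a block or held fixed, limma 3.58.1 on log2 of the normalised counts plus 1, a threshold of 0.01, and leaving out each library. Protein sequences were not used here. Some genes and sequences of the rule are not reported here.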

Additional observations from a re-analysis of the deposited data

Results flagged for a closer look

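In 4 of 74 groups of 5 samples, taken over the genes named by rule, the highest or lowest sample stood apart, with a gap to its neighbour of more than 0.71 of the range on the log2 CPM scale. Chance gives about 1 in 20. For Kcnj4 the gap was 0.765 of the range, with Dot1l-cKO replicate 5 at 69 reads and 1.11 CPM, the sample that made its groups overlap. For Dot1l it was 0.717 (Dot1l-cKO replicate 2, at 20.1 CPM, the lowest of all samples). Control replicate 5 was the highest control for Cacna1h (0.714, at 109 CPM) and for Kcnj8 (0.718, at 9.2 CPM).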

How the results depend on the processing

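The median log2 fold change of the channel genes stayed between 0.14 and 0.26 and that of all genes between -0.03 and 0.01 in every alternative. With the replicate block 18 channel genes were higher and 1 lower; it ended the call on Kcnj9 (adjusted p = 0.052), added Cacna1d, Cacna1e and Scn3b, changed no other call of a channel gene and raised the lower calls over all genes from 246 to 495. The header-number block raised them to 597. DESeq2 called 2001 genes, 658 of them lower, with 18 channel genes higher and 5 lower. Without the filter on low counts Kcnip3, Kcnj9 and Kcnk12 lost their call, and with DESeq2 size factors or limma Kcnip3 did. Within header number 57, with 4 samples, edgeR called 5 genes, 4 higher and 1 lower, and 0 channel genes in either direction. At an unadjusted p under 0.05, 25 channel genes were higher and 4 lower there, with no count over all genes to set beside them. With all 10 samples 25 of the 100 channel genes were higher and 8 lower at that level. Over all 17039 genes 2265 were higher and 1242 lower. The other 6 samples gave 737 calls among 17039 genes, 590 higher and 147 lower. Of the 100 channel genes 4 were higher and 1, Scn1a, was lower, shares close to those over all genes. Of the 17 channel genes called with all samples 3 were among them, Kcnn2 was not, and Kcna1 was added. With all samples at an adjusted p under 0.01, 495 genes were called, 422 higher and 73 lower, with 6 channel genes higher and 1 lower. Without 1 library the counts ran from 736 to 1343 called, 614 to 1054 higher and 122 to 339 lower, with 8 to 19 channel genes higher and 1 to 2 lower; these fits have fewer samples.

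No called gene changed sign, though the called genes were picked on the same data. Genes near 0 did, and the cause was not tested. Kcnj8 was at -0.01 (log2 fold change) with DESeq2 and with its size factors, -0.05 within header number 57 and -0.0088 in limma, where Dot1l was at -0.0058. Within header number 57 Scn8a was at 0.18, Cacna1c at 0.08, Kcnd2 at 0.32 and Dot1l at -0.37, and within the other 6 samples Kcna3 was at -0.02, Scn3a at -0.15 and Kcnma1 at -0.02. Without 1 library the ranges were -0.06 to 0.15 for Kcnj8, -0.02 to 0.18 for Kcna3, -0.04 to 0.20 for Scn3a, -0.008 to 0.31 for Kcnma1, -0.26 to 0.02 for Scn8a, -0.21 to 0.07 for Cacna1c, -0.23 to 0.0031 for Kcnd2 and -0.05 to 0.25 for Dot1l. Genes under about 1 CPM rest on few reads (Kcnj6, at least 17 per sample), so differences there may not be detectable at this depth.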
